A study of Mus musculus with 4 samples.

Results

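Collagens and laminins are the proteins from which the extracellular matrix is built. Fibrillar collagens assemble into the tension-bearing cables of connective tissue and cartilage, type IV collagens form a sheet-like network under epithelia and around vessels, and laminins, each a trimer of an α, a β and a γ chain, form the other network of the same basement membranes. In the early embryo the endoderm is a strong source of type IV collagen and laminin, laminin made by pluripotent and neuroepithelial cells surrounds them with their first basement membrane, and fibrillar collagens are typical products of mesenchyme and cartilage. The genes described here are all those in the deposited table with a symbol of the form Col, number, a, number (43 collagen genes) or Lam, a, b or c, number (11 laminin genes), which makes 54 of 23235 gene symbols. They fall into 11 fibrillar collagens, 9 collagens of the basement membrane and its underside, 11 laminins and 23 other collagens.

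The study measured rRNA-depleted total RNA by sequencing in 4 mouse cultures of strain 129S4/SvJae, with 1 library each. WT_ES were wild-type embryonic stem (ES) cells of the J1 background at day 0 in medium with serum and leukemia inhibitory factor. DKO_ES were ES cells in which both de novo DNA methyltransferase genes, Dnmt3a and Dnmt3b, had been knocked out, in the same medium and on the same day. WT_NP and DKO_NP were neural progenitor cells (NPCs) derived from the respective ES cells by 4 days as embryoid bodies and 2 days of retinoic acid, collected at day 6. All ES cells had been kept on irradiated feeder cells in earlier passages and then passaged off them, and the labels do not say whether the knockout was 1 clone or several. With 1 library a group there is no spread between replicates, no test was possible, and every difference below compares 2 libraries. Levels are median-scaled FPKM, the authors' FPKM (fragments per kilobase of transcript, set against the reads of the library) divided by a factor for each library, and folds are ratios of them. A gene was counted as higher or lower at a log2 ratio of 1 in size (2-fold) of scaled FPKM + 1, where either library reached 1. The 95% intervals are exact (Clopper-Pearson) and rest on approximate read numbers, so they cover counting error only.

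Denominators inferred from the steps of low values were about 12500000 reads in WT_ES and 33000000 in WT_NP, with 13600000 in DKO_ES and 22800000 in DKO_NP, so that the NPC libraries were deeper. A value of 3 reads in a transcript of 6 kb, a usual length here, corresponds to between 0.0226 and 0.0302 scaled FPKM. Dnmt3a stood at 26.8 in WT_ES and 9.82 in DKO_ES and Dnmt3b at 106.3 and 11.1. The 6 pluripotency markers (Pou5f1, Nanog, Sox2, Zfp42, Esrrb and Tdgf1) summed to 2520 and 2614 in the ES libraries and to 53.4 in WT_NP and 153 in DKO_NP. Neural progenitor markers (8 genes) summed to 22.7 in WT_ES and 91.7 in WT_NP, with 28.1 in DKO_ES and 247 in DKO_NP. The libraries labelled NPC also held markers of other cell types. The 13 markers of primitive and parietal endoderm summed to 213 in WT_NP and 93.9 in DKO_NP, against 10.6 and 6.56 in WT_ES and DKO_ES. The 8 endothelial markers summed to 78.9 and 39.4 in WT_NP and DKO_NP and to 35.03 in each ES library, where Emcn was listed at 0. Most of the ES sums was Pecam1, at 28.8 in WT_ES and 23.6 in DKO_ES, against 7.58 in WT_NP and 9.40 in DKO_NP.

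The 4 type IV collagen genes that stood highest are shown first by sequence, because they lie in head-to-head pairs and because both genes of each pair were more than 2-fold higher after differentiation in each genotype. The windows below are RefSeq promoters of build GRCm38.p6 (250 bases before to 50 after the start), read 5′ to 3′ on the gene's own strand. Capitals mark the GC box GGGCGG and the CCAAT box, on either strand. The values were made on mm9, so these positions serve only to identify the windows, which are chr8:11312777-11313076 (minus strand) for Col4a1, chr8:11312555-11312854 (plus) for Col4a2, chrX:141475169-141475468 (plus) for Col4a5 and chrX:141474027-141474326 (minus) for Col4a6.
Col4a1: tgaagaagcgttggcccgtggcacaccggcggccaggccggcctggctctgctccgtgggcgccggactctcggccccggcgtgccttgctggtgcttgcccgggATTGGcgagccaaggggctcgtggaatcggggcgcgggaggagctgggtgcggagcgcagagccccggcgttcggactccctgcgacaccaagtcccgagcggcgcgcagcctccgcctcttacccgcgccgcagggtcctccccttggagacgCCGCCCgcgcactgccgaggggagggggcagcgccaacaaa
Col4a2: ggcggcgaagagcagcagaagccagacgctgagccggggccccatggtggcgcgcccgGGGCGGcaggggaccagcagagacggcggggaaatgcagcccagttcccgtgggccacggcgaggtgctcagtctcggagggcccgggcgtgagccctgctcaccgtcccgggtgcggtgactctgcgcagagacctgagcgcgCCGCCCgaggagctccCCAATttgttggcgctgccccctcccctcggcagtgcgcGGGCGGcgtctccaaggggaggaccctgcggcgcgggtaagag
Col4a5: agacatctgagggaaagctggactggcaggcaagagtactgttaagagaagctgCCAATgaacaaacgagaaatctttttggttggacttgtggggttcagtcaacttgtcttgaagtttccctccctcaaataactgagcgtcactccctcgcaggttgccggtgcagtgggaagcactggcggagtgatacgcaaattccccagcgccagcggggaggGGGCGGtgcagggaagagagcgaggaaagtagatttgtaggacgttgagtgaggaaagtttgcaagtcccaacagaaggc
Col4a6: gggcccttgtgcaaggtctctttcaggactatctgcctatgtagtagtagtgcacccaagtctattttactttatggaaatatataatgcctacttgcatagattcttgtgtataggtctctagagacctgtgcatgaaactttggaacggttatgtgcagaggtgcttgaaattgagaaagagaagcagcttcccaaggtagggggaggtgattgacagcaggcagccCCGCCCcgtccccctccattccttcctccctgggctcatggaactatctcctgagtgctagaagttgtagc
The Col4a1 and Col4a2 windows share 78 bases, while 842 bases separate those of Col4a5 and Col4a6. Col4a1 and Col4a2 held 37 and 33 CpG dinucleotides, more than 94.4% and 91.4% of all 32851 promoter windows, and Col4a5 and Col4a6 held 11 and 3. The GC box occurred 1 time in Col4a1, 3 times in Col4a2 and 1 time each in Col4a5 and Col4a6, and 35.7% of all windows hold it. The Col4a1 site and the last Col4a2 site are the same bases, which lie in the shared stretch. CCAAT occurred 1 time in each of Col4a1, Col4a2 and Col4a5, and 37.4% of all windows hold it. TATAAA (13.6% of all windows) and the GATA motif AGATAA (11.2%), searched on both strands, were in none of the 4 windows. Such matches describe letters in a window and say nothing of binding.

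Expression of the family was concentrated in a few basement membrane genes. Summed over all 54 genes, scaled FPKM came to 411.5 in WT_ES and 806.9 in WT_NP, with 372.5 in DKO_ES and 517.1 in DKO_NP. The leading 5 genes made up 76.2% of the sum in WT_ES (Col18a1, Lamc1, Lama5, Lamb1 and Col4a1) and 85.7% in DKO_ES, where Lama1 took the place of Col4a1. In WT_NP the leading 5 were Col4a1, Col18a1, Col4a2, Lamb1 and Lamc1, with 63.7% of the sum, and in DKO_NP the cartilage collagen gene Col2a1 was among them (62.7%). The number of genes at 1 or more was 23 in WT_ES and 34 in WT_NP, with 16 in DKO_ES and 26 in DKO_NP. In all, 36 of the 54 reached 1 in at least 1 library and 18 did not.

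**Figure D1:**
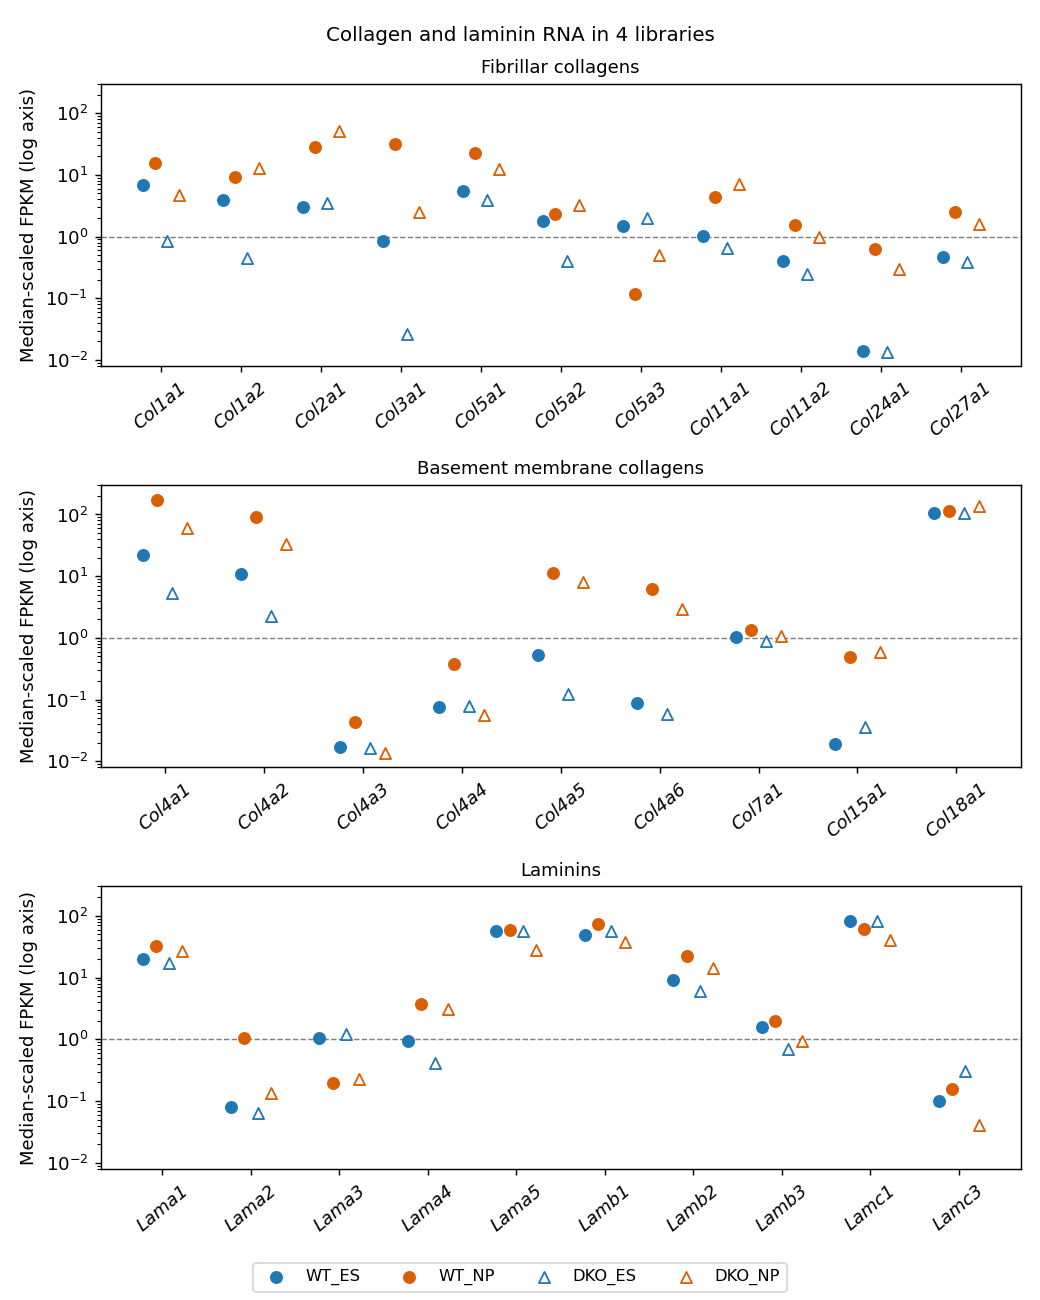
Median-scaled FPKM on a log axis for the fibrillar collagens, basement membrane collagens and laminins (all but 1 gene), with 1 point per library (circles wild type, triangles knockout, blue ES cells, orange NPCs) and a dashed line at 1. Col18a1 lies between 103.8 and 135.3 in all 4 libraries, whereas Col4a1 spans 5.41 to 174 and Col3a1 0.0261 to 32.1.

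Among wild-type cells, WT_NP against WT_ES, 17 of the 36 genes at 1 or more were at least 2-fold higher (47.2%, against 16.5% of the 14236 genes so tested) and 3 were lower (8.33%, against 11.2%). The median log2 ratio was 0.93, against 0.05 over all genes. Among knockout cells, DKO_NP against DKO_ES, 17 of 30 were higher (56.7%, against 12.0% of 13900) and 1 was lower (3.33%, against 11.3%), with a median of 1.36 against -0.01. Median scaling adds 0.98 to every wild-type log2 ratio before the pseudocount and 0.46 to every knockout ratio. As deposited, without scaling, the wild-type counts were 6 higher (Col2a1, Col3a1, Col4a1, Col4a2, Col4a5 and Col4a6) and 7 lower, and the knockout counts 16 higher and 6 lower. Of 30 genes tested in both genotypes, 14 were at least 2-fold higher in both, namely Col1a1, Col1a2, Col2a1, Col3a1, Col4a1, Col4a2, Col4a5, Col4a6, Col5a1, Col6a1, Col11a1, Col12a1, Lama4 and Lamb2. The share of all genes higher in both genotypes was not counted, so the 14 cannot be set against it.

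Markers of other cell types moved beside these values. Of the endoderm markers 11 of 12 were at least 2-fold higher after wild-type differentiation and none lower, and 8 of 10 were higher and 1 lower after that of knockout cells. Of the fibroblast and mesenchyme markers 6 of 11 were higher and 2 lower in wild type, and 2 of 6 higher and 1 lower in knockout, with sums of 59.9 in WT_ES and 92.7 in WT_NP and of 24.8 in DKO_ES and 44.8 in DKO_NP. Of the endothelial markers 6 of 8 were higher and 1 lower in wild type, and 5 of 8 higher and 1 lower in knockout. In bulk RNA fewer cells of a type and less RNA per cell cannot be told apart, and the part of these cell types in the collagen and laminin values was not tested.

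**Figure D2:**
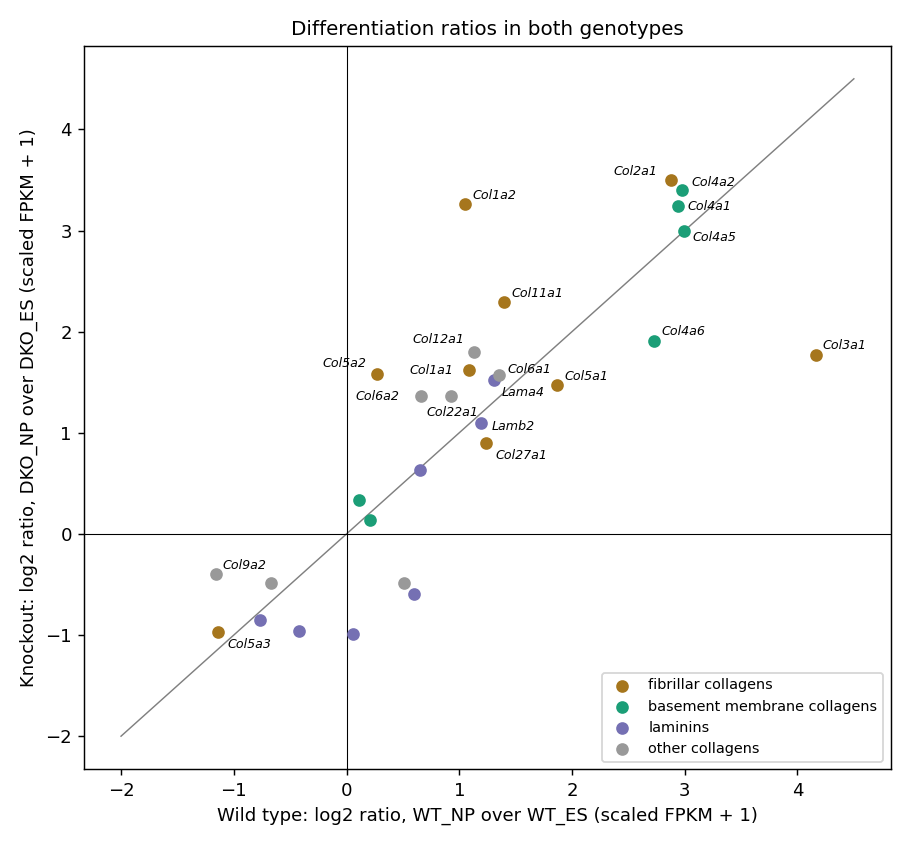
Log2 ratios (scaled FPKM + 1) of NPCs over ES cells, with wild type on the x axis and knockout on the y axis, for the genes tested in both, all but 1 of which are shown. The grey line marks equal ratios, Col1a2 (1.05 and 3.26) lies far above it and Col3a1 (4.16 and 1.77) far below, and Lama5 and Lamb1 lie below the horizontal axis to the right of 0.

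Fibrillar collagens were low in ES cells and went in sum from 25.2 in WT_ES to 119.5 in WT_NP and from 12.4 in DKO_ES to 96.7 in DKO_NP. Of 10 tested in wild type, 7 were at least 2-fold higher (70%, against 16.5% of all genes) and 1, Col5a3, lower (10%, against 11.2%). Of 9 tested in knockout, 7 were higher (77.8%, against 12.0%) and none lower (against 11.3%). Col2a1, the fibril collagen of cartilage and also of notochord and early neuroepithelium, stood at 2.98 in WT_ES and 28.4 in WT_NP, with 3.54 in DKO_ES and 50.5 in DKO_NP. It was 9.51-fold higher after differentiation in wild type (interval 8.36 to 10.9) and 14.3-fold in knockout (12.7 to 16.1), and both NPC libraries stood above both ES libraries. Its fibril partner Col11a1, whose chain sets the diameter of cartilage fibrils, stood at 1.02, 4.34, 0.647 and 7.07 in WT_ES, WT_NP, DKO_ES and DKO_NP. It was 4.27-fold (3.53 to 5.18) and 10.9-fold (8.73 to 13.8) higher after differentiation. Of the markers of cartilage and notochord, 4 of 5 tested in wild type were higher (80%, against 16.5%) and 1 lower (20%, against 11.2%). In knockout 3 of 5 were higher (60%, against 12.0%) and 1 lower (20%, against 11.3%). Sox9, Sox6 and Hapln1 were higher in both. The whole list of 10 summed to 5.44, 16.1, 5.38 and 9.53 in the same order. Of the same list, Acan stood lower after differentiation in both genotypes (3.81, 0.368, 3.85 and 1.51), as did Matn1 (0.992, 0.241, 1.25 and 0.0857). Noto was listed at 0 in all but WT_NP, where it stood at 0.0516. Shh (0, 0.424, 0 and 0.141), T (0.209, 0.391, 0.127 and 0.0419) and Matn4 (0.213, 0.354, 0.0458 and 0.189) stayed below 1.

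Col3a1, the type III collagen of soft connective tissue and vessel walls, had the widest range of the fibrillar genes, at 0.854 in WT_ES and 32.1 in WT_NP, with 0.0261 in DKO_ES and 2.49 in DKO_NP. It was high in WT_NP alone. In wild type it was 37.5-fold higher after differentiation (29.9 to 47.3). In knockout it was 95.2-fold higher (32.4 to 979), a ratio that rests on about 2 reads in DKO_ES. The difference of its 2 log2 differentiation ratios therefore turns with the scale, at -2.39 with the pseudocount and 1.34 without it.

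The type I genes Col1a1 and Col1a2 encode the α1 and α2 chains of the most abundant collagen of bone, tendon and skin, which normally assemble with more α1 than α2. Col1a1 stood at 6.77 in WT_ES and 15.6 in WT_NP, with 0.852 in DKO_ES and 4.67 in DKO_NP. Col1a2 stood at 3.96, 9.29, 0.444 and 12.8 in the same order. Both were lowest in DKO_ES, but Col1a1 was highest in WT_NP and Col1a2 in DKO_NP. After differentiation Col1a1 was 2.30-fold higher in wild type (2.11 to 2.51) and 5.49-fold in knockout (4.38 to 6.98). Col1a2 was 2.34-fold (2.07 to 2.65) and 28.9-fold (20.98 to 40.03) higher.

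Because FPKM is per length, the ratio of the 2 chains can be read within each library and does not depend on scaling. Col1a1 over Col1a2 was 1.71 in WT_ES (1.50 to 1.95), 1.68 in WT_NP (1.56 to 1.81), 1.92 in DKO_ES (1.29 to 2.82) and 0.364 in DKO_NP (0.330 to 0.401). The intervals of the first 3 libraries overlap, and DKO_NP lay below them all. For the type IV pair, Col4a1 over Col4a2 was 2.00, 1.88, 2.41 and 1.79 in WT_ES, WT_NP, DKO_ES and DKO_NP, above 1 in each. For type V, Col5a1 over Col5a2 was 3.10 in WT_ES and 3.93 in DKO_NP but 9.72 in WT_NP and 9.71 in DKO_ES. Values per gene do not show which exons the reads came from.

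**Figure D3:**
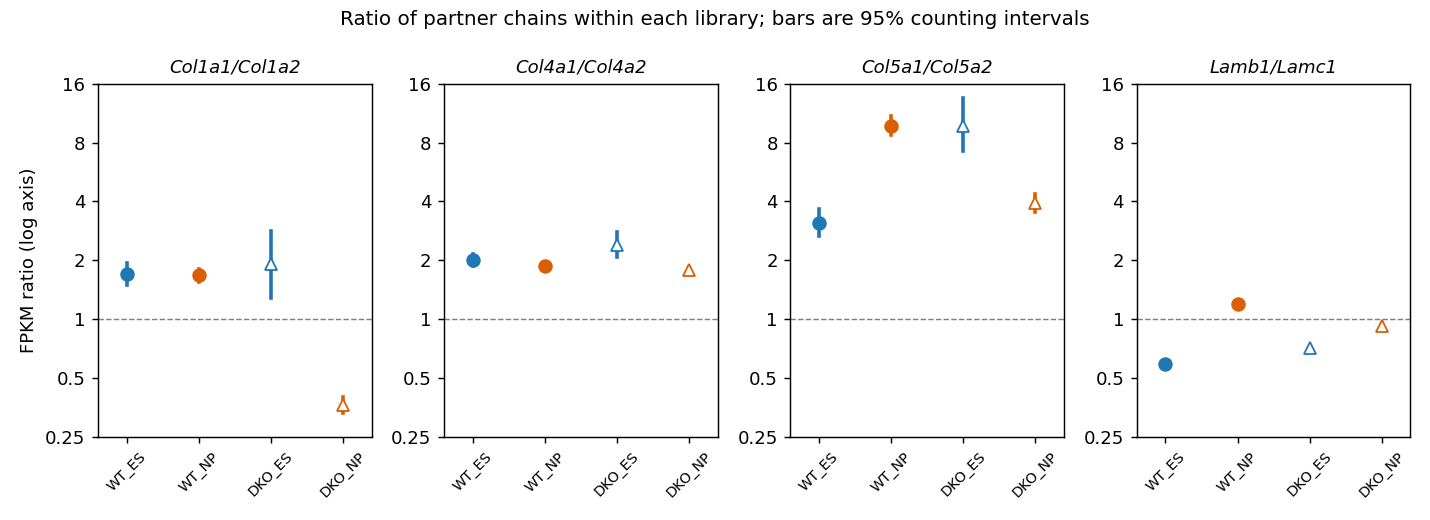
Ratio of FPKM of partner chains within each library on a log axis, with 95% counting intervals, for type I, type IV and type V collagen and the laminin β1 and γ1 chains. Col1a1/Col1a2 falls below 1 only in DKO_NP (0.364), while Col4a1/Col4a2 stays between 1.79 and 2.41.

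The type V genes encode the minor chains on which type I fibrils nucleate. Col5a1 stood at 5.50 in WT_ES and 22.8 in WT_NP, with 3.89 in DKO_ES and 12.6 in DKO_NP, 4.14-fold (3.83 to 4.48) and 3.23-fold (2.94 to 3.55) higher after differentiation. Col5a2 stood at 1.77, 2.34, 0.401 and 3.19, and was 1.32-fold (1.11 to 1.59) higher in wild type and 7.97-fold (5.90 to 11.2) in knockout. Without scaling its wild-type ratio was below 0 (a log2 ratio of -0.38). Col5a3 went the other way and stood at 1.46 and 1.96 in WT_ES and DKO_ES and at 0.116 and 0.511 in WT_NP and DKO_NP. It was 12.5-fold lower after wild-type differentiation (7.37 to 22.2) and 3.84-fold lower (2.88 to 5.13) in knockout, where its log2 ratio of -0.97 did not reach the count. The remaining fibrillar genes were low. Col27a1 went from 0.461 to 2.46 in wild type and from 0.390 to 1.60 in knockout, Col11a2 from 0.402 to 1.54 and from 0.251 to 0.978, and Col24a1 stayed below 1 everywhere (highest 0.619 in WT_NP).

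Basement membrane collagens stood higher after differentiation through type IV. Of 6 tested in each genotype, 4 were at least 2-fold higher and none lower. That is 66.7% higher, against 16.5% of all genes in wild type and 12.0% in knockout. Median log2 ratios were 2.84 in wild type and 2.45 in knockout, and the summed level went from 138 to 398 and from 115.6 to 240.6. Col4a1 and Col4a2 encode the chains of the type IV network found in nearly all basement membranes. Col4a1 stood at 21.8 in WT_ES and 174 in WT_NP, with 5.41 in DKO_ES and 59.3 in DKO_NP. Col4a2 stood at 10.9, 92.6, 2.24 and 33.2. In each genotype the NPC library stood above the ES library, and in each cell type the knockout below the wild type. Col4a1 was 7.99-fold (7.66 to 8.34) and Col4a2 8.49-fold (7.999 to 9.03) higher after wild-type differentiation, and 10.98-fold (10.1 to 11.95) and 14.8-fold (13.04 to 16.9) after that of knockout cells. The first exons of the pair lie close together on opposite strands, and since the strand setting of the counting is unknown, reads there may belong to either gene.

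Col4a5 and Col4a6 encode chains of the type IV networks of kidney, skin and smooth muscle, and lie on chromosome X. Col4a5 stood at 0.537 in WT_ES and 11.2 in WT_NP, with 0.122 in DKO_ES and 7.96 in DKO_NP, 20.8-fold (16.04 to 27.6) and 65.2-fold (37.7 to 116.5) higher after differentiation. Col4a6 stood at 0.0898, 6.25, 0.0580 and 2.98, 69.6-fold (37.2 to 144) and 51.4-fold (23.3 to 121) higher. The ES values of Col4a6 rest on about 10 and 7 reads. Its ratio to Col4a5 was thus poorly set in ES cells, and Col4a5 over Col4a6 was 1.79 (1.65 to 1.94) in WT_NP and 2.67 (2.38 to 3.001) in DKO_NP. The third pair, Col4a3 and Col4a4, used in the filter of the kidney, stayed at or below 0.379 in all libraries.

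Col18a1, from whose end the vessel inhibitor endostatin is cut, was abundant in all libraries. It stood at 103.8 in WT_ES and 112 in WT_NP, with 106.7 in DKO_ES and 135.3 in DKO_NP. Its differentiation ratios were 1.08 (1.06 to 1.11) and 1.27 (1.24 to 1.30), and both fall below 1 as deposited (log2 ratios of -0.85 and -0.12). Col7a1, which forms the fibrils that anchor skin, stood between 0.893 and 1.36. Col15a1, a relative of Col18a1, went from 0.0189 to 0.493 in wild type and from 0.0365 to 0.595 in knockout and did not reach 1.

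Laminins had no common direction after differentiation. Of 10 tested in wild type 2 were at least 2-fold higher (20%, close to the 16.5% of all genes), with a median log2 ratio of 0.40, and of 8 tested in knockout 2 were higher (25%, against 12.0%), with a median of -0.72. Lama1, the α chain of the first embryonic laminin, stood at 20.3 in WT_ES and 32.5 in WT_NP, with 16.95 in DKO_ES and 26.8 in DKO_NP, 1.60-fold (1.53 to 1.67) and 1.58-fold (1.51 to 1.66) higher after differentiation. Lama5, the α chain of the laminin on which pluripotent cells grow, stood at 57.4, 60.1, 56.8 and 28.1. WT_ES, WT_NP and DKO_ES were close together and DKO_NP was lower, so that the fold after differentiation was 1.05 (1.02 to 1.07) in wild type and the gene was 2.02-fold lower (1.96 to 2.09) in knockout, where its log2 ratio of -0.99 did not reach the count. Lamb1, the β chain shared by both, stood at 48.4, 73.7, 57.5 and 37.9, 1.52-fold higher (1.47 to 1.58) in wild type and 1.52-fold lower (1.46 to 1.58) in knockout. Lamc1, the γ chain of nearly all laminins, stood at 82.4, 61.4, 81.1 and 41.3, 1.34-fold (1.31 to 1.38) and 1.97-fold (1.91 to 2.03) lower. As deposited, the wild-type ratios of Lama1, Lama5 and Lamb1 were below 0 (log2 -0.29, -0.89 and -0.36), so their direction in wild type rests on scaling.

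The proportions of the laminin chains also shifted. Lama5 over Lama1 was 2.82 in WT_ES (2.71 to 2.94), 1.85 in WT_NP (1.80 to 1.90), 3.35 in DKO_ES (3.22 to 3.50) and 1.05 in DKO_NP (1.01 to 1.09). Both NPC libraries lay below both ES libraries. Lamb1 over Lamc1 was 0.588 and 0.709 in WT_ES and DKO_ES and 1.20 and 0.919 in WT_NP and DKO_NP. These ratios hold within a library and are not moved by scaling.

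Of the other laminins, Lamb2, the β chain of muscle, nerve and kidney basement membranes, stood at 9.15 in WT_ES and 22.2 in WT_NP, with 6.03 in DKO_ES and 14.1 in DKO_NP, 2.42-fold (2.24 to 2.62) and 2.34-fold (2.12 to 2.57) higher after differentiation. Lama4, the α chain typical of blood vessels, went from 0.924 to 3.77 in wild type and from 0.408 to 3.04 in knockout. Lama3 and Lamb3, chains of epithelial laminin, were low. Lama3 stood at 1.04 and 1.21 in WT_ES and DKO_ES and at 0.199 and 0.224 in WT_NP and DKO_NP. Lamb3 stood at 1.58, 0.703, 1.98 and 0.941 in that order. Lama2, the α chain of muscle, was at 1.05 in WT_NP and between 0.0639 and 0.134 elsewhere, and Lamc3 reached at most 0.302.

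Among the 23 other collagens, 10 were tested in wild type. Of these, 4 were at least 2-fold higher (40%, against 16.5% of all genes), namely Col23a1, Col6a1, Col10a1 and Col12a1, and Col9a2 was lower (10%, against 11.2%). In knockout 7 were tested and 4 were higher (57.1%, against 12.0%), namely Col12a1, Col6a1, Col6a2 and Col22a1, with none lower (against 11.3%). Col9a2, a chain of the collagen that coats cartilage fibrils, reached the highest level of them and stood at 7.07 in WT_ES and 2.62 in WT_NP, with 9.17 in DKO_ES and 6.72 in DKO_NP. Col23a1, a membrane-spanning collagen, was high in WT_NP alone, at 1.26, 5.93, 0.992 and 0.988. Col6a1 and Col6a2, chains of the beaded microfibrils around cells, went from 0.601 and 0.561 to 3.09 and 1.47 in wild type and from 0.260 and 0.331 to 2.74 and 2.43 in knockout. Col12a1, which bridges fibrils, went from 0.694 to 2.70 and from 0.0938 to 2.81. Col22a1 stood at 0.732, 2.30, 0.780 and 3.56, and Col10a1, the collagen of hypertrophic cartilage, reached 2.34 in WT_NP and at most 0.527 elsewhere. Col9a3, the partner chain of Col9a2, stood at 2.37, 1.12, 1.56 and 0.817, and Col20a1 at 0.811, 1.61, 0.457 and 0.977.

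Of the 18 genes that stayed below 1 in every library, Col6a4 (0.953), Col17a1 of skin anchoring (0.877) and Col8a2 (0.689) stood highest in WT_ES and Col6a5 in DKO_ES (0.822). Highest in WT_NP were Col14a1 (0.785), Col8a1 (0.742), Col9a1, another chain of type IX (0.548), and Col19a1 (0.0244), which was listed at 0 in WT_ES. Col25a1 reached 0.628 in DKO_NP, Col16a1 0.540 in WT_ES, Col6a3 0.179, Col6a6 0.124 and Col28a1 0.0862 in DKO_NP. The others of the 18 are Col4a3, Col4a4, Col15a1, Col24a1 and Lamc3.

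In undifferentiated cells, DKO_ES against WT_ES, the knockout was counted lower at a small set of collagens, and further low genes stood lower by their levels. Of 23 genes tested none was at least 2-fold higher (against 2.66% of 13104 genes) and 4 were lower (17.4%, against 1.19%; 3.85% of all genes differed 2-fold either way), and the median log2 ratio was -0.25 against 0.01 over all genes. The 4 were Col1a1, Col1a2, Col4a1 and Col4a2. Col1a1 was 7.94-fold lower in the knockout (6.36 to 10.1), Col1a2 8.92-fold (6.38 to 12.5), Col4a1 4.03-fold (3.68 to 4.41) and Col4a2 4.86-fold (4.23 to 5.60). Col5a2 was 4.43-fold lower (3.20 to 6.30), at a log2 ratio of -0.99 on the scale with the pseudocount, and Col3a1, below 1 in both libraries, stood at about 79 reads in WT_ES and 2 in DKO_ES. Low genes with the same direction included Col12a1 (0.694 and 0.0938), Col8a1 (0.599 and 0.0476), Col6a1 (0.601 and 0.260) and the type IV gene Col4a5 (0.537 and 0.122). Col4a5 was 4.40-fold lower by its levels (2.36 to 8.30). Lamc3 (0.101 and 0.302, about 10 and 30 reads) stood 2.99-fold higher in the knockout (1.38 to 6.66). Col14a1 (0.0540 and 0.127) rested on about 6 and 14 reads, and the interval of its fold of 2.35 included 1 (0.816 to 7.18).

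The abundant laminins and Col18a1 were close to equal between these ES libraries. Lama5 was at a fold of 0.990 in the knockout (0.964 to 1.02), Lamc1 at 0.985 (0.959 to 1.01), Col18a1 at 1.03 (1.002 to 1.06), Lama1 at 0.833 (0.791 to 0.877) and Lamb1 at 1.19 (1.14 to 1.23). No laminin reached 2-fold on the counted scale. By levels alone the low gene Lamb3 was 2.24-fold lower (1.64 to 3.07), and Lama4, below 1 in both libraries, 2.27-fold lower (1.55 to 3.34). Beside these values, the 13 fibroblast and mesenchyme markers, which the feeder cells of earlier passages may also express, summed to 59.9 in WT_ES and 24.8 in DKO_ES. Most of the WT_ES sum was Tagln (30.7, against 7.33 in DKO_ES) and Acta2 (13.9, against 4.62). Of 7 tested, 3 were lower in DKO_ES (S100a4, Tagln and Acta2; 42.9%, against 1.19% of all genes) and 1, Twist1, was higher (14.3%, against 2.66%). Of the 13 markers, Dcn and Fap were listed at 0 in both ES libraries, Lum at 0 in WT_ES and Tcf21 at 0 in DKO_ES. Endoderm markers summed to 10.6 in WT_ES and 6.56 in DKO_ES, with none of 7 at 2-fold on the counted scale. By their levels 4 of the 7 were over 3-fold lower in DKO_ES, namely Cubn (4.48-fold, 3.24 to 6.36), Amn (3.65-fold, 1.87 to 7.54), Gata4 (3.25-fold, 2.00 to 5.21) and Dab2 (3.18-fold, 2.27 to 4.55). Hnf4a, also among the 7, went the other way and was 2.34-fold higher (1.67 to 3.33), and Plat stood at a fold of 1.41 (0.881 to 2.20). The part of other cell types in the lower collagens was not tested.

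After differentiation, DKO_NP against WT_NP, the knockout stood lower at 6 of 25 collagens and 1 of 9 laminins tested. Of 34 genes tested, 1 was at least 2-fold higher (2.94%, against 4.59% of 14127 genes) and 7 were lower (20.6%, against 7.87%), and the median log2 ratio was -0.41 against 0.00 over all genes. As deposited the counts were 2 higher and 5 lower, and Lama5 and Col10a1 were not among the latter. The 7 were Col3a1, Col23a1, Col1a1, Col4a1, Col4a2, Col10a1 and Lama5. Col3a1 was 12.9-fold lower in the knockout (11.5 to 14.6), Col23a1 5.999-fold (4.91 to 7.34), Col1a1 3.33-fold (3.04 to 3.66), Col4a1 2.93-fold (2.86 to 3.01), Col4a2 2.79-fold (2.69 to 2.88), Col10a1 4.44-fold (3.06 to 6.65) and Lama5 2.14-fold (2.08 to 2.20). Of the 9 laminins tested, 8 were below 0, with Lamb1 1.94-fold (1.88 to 2.01) and Lamc1 1.49-fold (1.44 to 1.53) lower. Of the genes tested, Lama2 (7.85-fold lower, 5.29 to 12.3), Col13a1 (2.94-fold lower), Col4a6 (2.10-fold lower, 1.86 to 2.36) and Lamb3 (2.10-fold lower) were past 2-fold by their levels but not on the counted scale. Genes below 1 in both libraries lay on both sides by their levels, with Col5a3 4.39-fold higher (2.49 to 8.04) and Col9a1 8.73-fold (3.75 to 30.1), Col4a4 6.80-fold (3.60 to 13.3) and Col14a1 4.24-fold (2.70 to 6.75) lower. As deposited the ratios of Lama1 and Lama4 were above 0.

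The gene counted as higher was Col9a2, at 2.56-fold (2.13 to 3.07). Collagens that stood higher without reaching 2-fold included Col2a1 at a fold of 1.78 (1.70 to 1.86), Col11a1 at 1.63 (1.48 to 1.79), Col6a2 at 1.65 (1.37 to 1.98), Col1a2 at 1.38 (1.28 to 1.50) and Col5a2 at 1.36 (1.18 to 1.57). Collagens of cartilage lay on both sides, since Col10a1 was counted lower and Col11a2 and Col9a3 stood at folds of 0.637 (0.510 to 0.7999) and 0.730 (0.499 to 1.05). Fibrillar collagens thus stood on both sides, with 4 of 9 above 0 and 5 below. Marker lists of 3 cell types stood lower in DKO_NP with the type III and type IV genes. For comparison, 7.87% of all genes were at least 2-fold lower and 4.59% higher between these libraries. Endoderm markers had 7 of 12 at least 2-fold lower and 1, Pth1r, higher. Fibroblast and mesenchyme markers had 5 of 9 lower and none higher, with sums of 92.7 in WT_NP and 44.8 in DKO_NP and S100a4 listed at 0 in both. Endothelial markers had 4 of 8 lower and none higher. Neural progenitor markers had 6 of 8 and pluripotency markers 4 of 6 higher and none lower, and cartilage and notochord markers 1 of 5 lower and none higher. The part of these cell types in the collagen and laminin values was not tested.

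**Figure D4:**
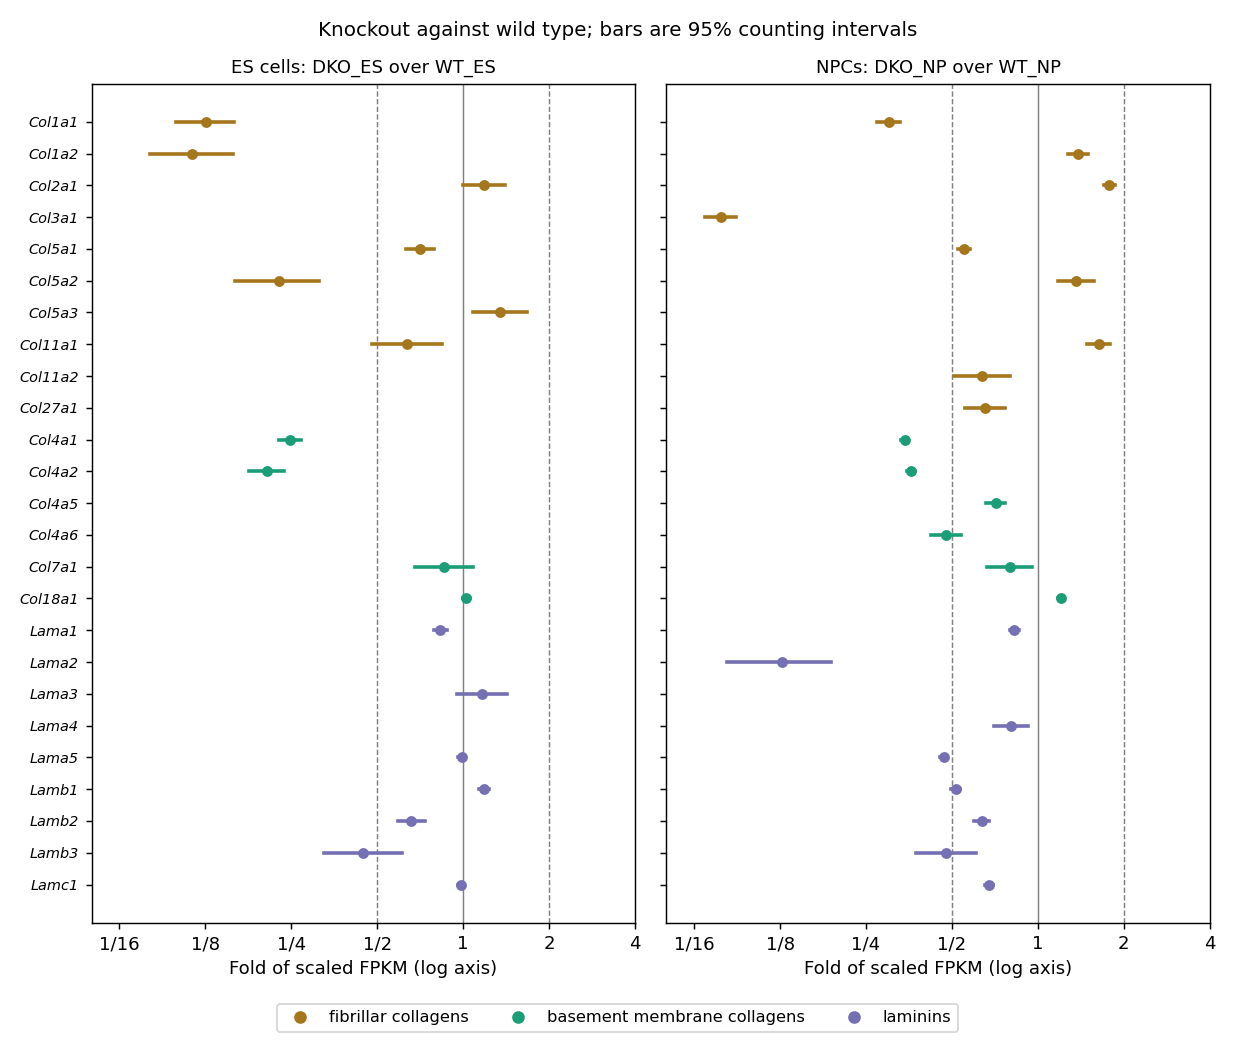
Folds of the knockout over wild type on a log axis, in ES cells (left) and NPCs (right) for fibrillar collagens, basement membrane collagens and laminins (all but 1 gene), with 95% counting intervals and dashed lines at 2-fold. Folds here carry no pseudocount, so low genes such as Lama2 can pass a line without being counted. Col4a1 and Col4a2 lie below the lower line in both panels, Col1a2 lies far below 1 on the left (0.112) and above it on the right (1.38), and Lama5 lies at 0.990 on the left and 0.468 on the right.

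The differentiation ratios of the genotypes were then set against each other. For 30 genes tested in both, the knockout ratio minus the wild-type ratio had a median log2 value of 0.19, against 0.02 over 13347 genes. It was 1 or more for 2 genes, Col1a2 (2.21) and Col5a2 (1.31), where 3.91% of all genes were so, and -1 or less for 4, Col3a1 (-2.39), Lamb1 (-1.18), Lama5 (-1.06) and Col13a1 (-1.01), where 7.17% were. As deposited 7 genes were higher and 2 lower, and Lama5, Lamb1 and Col13a1 stood at -0.55, -0.68 and -0.63, short of the count. Without the pseudocount Col1a2, Col5a2, Lamb1, Lama5 and Col13a1 kept their direction (3.62, 2.59, -1.21, -1.08 and -1.65). Of the 30, 3 had opposite signs in the 2 genotypes, namely Lama5, Lamb1 and Col13a1. The share of all genes with opposite signs was not counted. Col13a1, a membrane-spanning collagen, stood at 1.61 in WT_ES and 2.73 in WT_NP, with 1.72 in DKO_ES and 0.929 in DKO_NP. The signs of these 3 in wild type rest on scaling. As deposited the 3 were below 0 in both genotypes. Col5a2 (-0.38 in wild type and 1.38 in knockout) and Lama1 (-0.29 and 0.19) then had opposite signs. None of these differences has a replicate error.

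Genes that process collagen stood on both sides after differentiation. Of 28 genes for the hydroxylation, folding, cleavage and crosslinking of collagen, 26 were tested in wild type (median log2 ratio 0.73). After differentiation 6 were at least 2-fold higher (23.1%, against 16.5% of all genes) and 4 lower (15.4%, against 11.2%). Of 21 tested in knockout, 5 were higher (23.8%, against 12.0%) and 3 lower (14.3%, against 11.3%), with a median of 0.07. Serpinh1, the chaperone of collagen folding, stood at 47.6 in WT_ES and 212 in WT_NP, with 46.9 in DKO_ES and 123.5 in DKO_NP. Between NPC libraries 3 of 24 were lower in the knockout (12.5%, against 7.87%) and none higher (against 4.59%), with a median of -0.38. Between ES libraries 2 of 19 were lower (10.5%, against 1.19%) and 1 higher (5.26%, against 2.66%). The gene Mia3, of collagen export, was listed at 0 in all 4 libraries, and a listed 0 can be a failed estimate.

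Of 15 basement membrane partners of collagen and laminin, 8 were at least 2-fold higher after wild-type differentiation (53.3%, against 16.5% of all genes). None was lower (against 11.2%). Of 14 tested in knockout cells, 3 were higher (21.4%, against 12.0%) and 1 lower (7.14%, against 11.3%). Between NPC libraries 6 of 15 were lower in the knockout (40%, against 7.87% of all genes) and none higher (against 4.59%), with a median of -0.55. Frem1, which anchors epithelium to mesenchyme, was 20.5-fold lower in DKO_NP than in WT_NP, and its relative Frem2 4.08-fold. The matrix proteins Fbln1 and Fn1 (fibronectin) were 3.05-fold and 2.89-fold lower. Between ES libraries none of 11 was at 2-fold on the counted scale, against 3.85% of all genes either way. Of the 11, 10 were below 0, and Tinagl1 was 3.10-fold lower in the knockout (2.05 to 4.70) by its levels. Of 13 matrix receptors, 9 were tested in wild-type differentiation. Of these, 2 were higher (Itga1 and Itga2, 22.2%, against 16.5%) and none lower (against 11.2%). In that of knockout cells 8 were tested, with Itga3 higher (12.5%, against 12.0%) and Itga6 lower (12.5%, against 11.3%). The knockout shares were close to those of all genes. Between ES libraries 2 of 7 were lower in the knockout (Itga3 and Itgb4, 28.6%, against 1.19%). Between NPC libraries none of 11 was at 2-fold on the counted scale, against 12.5% of all genes either way. By levels, Itga7 (4.63-fold) and Ddr2 (2.91-fold) stood higher and Itgb4 (2.44-fold) and Itga1 (2.10-fold) lower in DKO_NP. Itgb1, the β1 integrin chain through which most collagen and laminin receptors work, stood at 85.6, 139, 64.2 and 83.2 in WT_ES, WT_NP, DKO_ES and DKO_NP.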

How the data were processed

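RNA-seq of 4 libraries, 1 per group, was used. The authors deposited FPKM per gene symbol in 1 table. The build was mm9 and the tools named are TopHat and Bowtie, per the submitters' processing notes, with versions, FPKM program, annotation, strand and treatment of multiply mapping reads not given in the sources used here. All 4 columns carry sample titles (0 unmapped), and 18 blank rows were left out. A listed 0 can be a failed estimate (Lars2 is at 0 in WT_ES).

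Scaling used, for each library, the median over 11334 genes (1 FPKM or more in all 4) of the gene's FPKM relative to its geometric mean (factors 1.32, 0.671, 1.25 and 0.908 for WT_ES, WT_NP, DKO_ES and DKO_NP). Ratios are log2(scaled FPKM + 1), counted at 2-fold where either library reached 1, which understates low genes. Relative depths came from the steps of low values; 47.4% of 3875 low genes were whole within 0.04 read. GENCODE M21 exon lengths gave approximate reads for all 54 genes; single genes' estimates of the denominator had 10th and 90th percentiles of 0.398 and 1.17 times the median, so intervals are rough. PCR copies are not independent molecules.

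Classes, other gene lists and the naming rule (genes at 1 FPKM or more, in full where a log2 ratio reached 2 or among the 3 most abundant of a class; the 4 pathway genes with the largest ratio between NPC libraries; others added in the text were chosen after their values were seen) were chosen with earlier results of these data known. In the list of collagen synthesis genes 5 were found under older symbols. The calculation was checked on simulated data. RefSeq promoters matched 40 of 54 genes. Python 3.11.15, numpy 2.4.6, pandas 2.3.3, scipy 1.17.1 and matplotlib 3.10.9 were used. The values of 1 gene of the 54 are not reported here, though it is in the counts.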

Additional observations from a re-analysis of the deposited data

How the results depend on the processing

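No paired analysis was possible because each group holds 1 library, and no library could be left out. Counts of genes at least 2-fold higher or lower were recomputed under 5 alternatives. As deposited, without scaling, WT_NP against WT_ES had 6 higher and 7 lower (17 and 3 with scaling), DKO_NP against DKO_ES had 6 lower (1), DKO_NP against WT_NP had 2 higher (1), and the difference of differentiation ratios had 7 higher and 2 lower (2 and 4). With a pseudocount of 0.1 FPKM, 5 genes were lower in WT_NP against WT_ES, 4 in DKO_NP against DKO_ES, and 8 had a higher and 3 a lower difference of ratios. With a filter at 5 FPKM fewer genes are tested, which left 11 higher in WT_NP against WT_ES, 8 higher and 0 lower in DKO_NP against DKO_ES, and 1 higher and 2 lower differences of ratios. Upper-quartile scaling and no filter left every one of these counts within 1.5 times. DKO_ES against WT_ES had 0 higher and between 3 and 6 lower under all 5. Of 123 ratios of single genes, none counted at 2-fold changed sign under an alternative that gave it a value (118 had one as deposited and 62 with the filter at 5 FPKM). Ratios short of 2-fold did change sign as deposited, for 8 of 36 genes in WT_NP against WT_ES (Col18a1, Lama1, Lama5 and Lamb1 among them), 2 of 30 in DKO_NP against DKO_ES, 1 of 23 in DKO_ES against WT_ES and 4 of 34 in DKO_NP against WT_NP.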

Other observations

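Genes that lie next to each other on the chromosome (RefSeq, protein-coding genes only) differed in some pairs. Col3a1 and Col5a2 are neighbours on chromosome 1, yet between NPC libraries Col3a1 was 12.9-fold lower in the knockout and Col5a2 at a fold of 1.36. Col6a1 over Col6a2, neighbours on chromosome 10, was 1.07 in WT_ES and 2.10 in WT_NP, with 0.785 in DKO_ES and 1.13 in DKO_NP. Col9a2 over Col9a3, partner chains on different chromosomes, was 2.98, 2.35, 5.89 and 8.22 in that order.

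The promoters of genes counted in a comparison of the genotypes, where a window was matched, ranged from 0 to 37 CpG dinucleotides. Among 40 matched genes the median window held 10.5, against 7 over all windows. Col3a1 held 0, Col10a1 6, Col9a2 10, Col1a2 13, Lamb1 18, Col23a1 24, Lama5 24, Col13a1 29, Col4a2 33 and Col4a1 37. Methylation itself was not analysed here.

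The type VI relatives Col6a4 and Col6a5 stood highest in ES cells. Col6a4 was at 0.953 in WT_ES and 0.0648 in WT_NP, with 0.510 in DKO_ES and 0.0533 in DKO_NP, and Col6a5 at 0.562, 0.0357, 0.822 and 0.0381. Both stayed below 1, with between 7 and 131 approximate reads a library.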
